A study of Mus musculus with 24 samples.

Results

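The C/EBP family of transcription factors was followed through 4 members in mouse quadriceps femoris muscle, namely Cebpa, Cebpb, Cebpd and Cebpg (4 of the 18669 genes counted). They were picked by name, and the family was chosen because Cebpb and Cebpd were strongly higher after heat shock in wild type mice. The wild type heat shock values are therefore a description and carry no test. All 4 members passed the filter on low counts.

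The study sequenced polyadenylated RNA of 24 mice, 2 in each of 12 groups, taken 4 h after treatment. The genotypes, on a CBA x C57BL/6 F1 background, were wild type, R6/2 and Hsf1-/-. R6/2 mice carry the first exon of human huntingtin with an expanded CAG repeat under the human gene's own promoter and are a model of Huntington's disease. In Hsf1-/- mice both copies of the gene for heat shock factor 1, the main activator of chaperone genes in heat, are disrupted in every cell. In the first experiment mice under isoflurane lay wrapped in a heating pad, with the core kept for 15 min at 41.5 °C (HS) or for 21 min at 36.9 °C (control), so anaesthesia is shared by both arms. In the second experiment mice received 12 mg/kg of HSP990, an inhibitor of the chaperone HSP90, or vehicle. Wild type and R6/2 mice were 12 weeks old throughout, whereas Hsf1-/- mice were 10 weeks old in the heat shock experiment and 8 weeks old in the HSP990 experiment. Genotype and age cannot be told apart for Hsf1-/- mice, and R6/2 mice are already symptomatic at this age. With 2 mice in a group, the smallest two-sided p that an exact permutation of 2 against 2 mice allows is 0.333, so tests come from a fit across all genes and measure the spread between these mice.

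C/EBP proteins bind DNA through a basic region and pair through a leucine zipper, as homodimers or with each other. Cebpb (C/EBPβ) and Cebpd (C/EBPδ) are induced quickly by cytokines, glucocorticoids and other stress signals and drive acute phase genes. Cebpg (C/EBPγ) lacks a transactivation domain of the usual kind and acts mostly as a dimer partner, among others of ATF4 in the amino acid response. Cebpa (C/EBPα) maintains the differentiated state of adipocytes, hepatocytes and myeloid cells. In skeletal muscle Cebpb and Cebpd have been tied to muscle wasting and to control of satellite cells.

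The promoter of Cebpb is shown because this member had the highest level per length and was the member whose response to heat was called outside wild type mice. The window, from RefSeq (GRCm38.p6, chr2:167688665-167688964, plus strand), runs from 250 bases before the start site to 50 bases after it. Capitals mark the 3 matches to TGACG on either strand, the core letters of a cAMP response element, at -180, -53 and -7 from the start.
Cebpb promoter: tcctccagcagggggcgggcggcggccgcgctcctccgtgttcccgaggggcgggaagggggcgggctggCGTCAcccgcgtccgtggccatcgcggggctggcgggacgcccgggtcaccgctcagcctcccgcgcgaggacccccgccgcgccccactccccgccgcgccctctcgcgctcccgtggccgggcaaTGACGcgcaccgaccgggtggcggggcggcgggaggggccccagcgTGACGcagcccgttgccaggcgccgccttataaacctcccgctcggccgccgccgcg
Of 32851 RefSeq promoters of this length, 20.8% hold TGACG. The window is 80.7% G and C, against a median of 52.7%. No match on either strand was present in the windows of Cebpa, Cebpb and Cebpg for GAANNTTC and TTCNNGAA (paired heat shock element units, in 7.86% and 8.52% of promoters), TTGCNNAA (C/EBP, 10.8%), TGATGNAA (the composite site of C/EBP and ATF, 3.97%), TTCNNNGAA (STAT, 8.3%) or ACANNNTGT (glucocorticoid receptor, 6.85%). These are letter matches in a short window and describe no binding. The promoter of Cebpd was not in the table used.

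In the older mouse genome build mm9, to which the reads had been mapped, Cebpa (gene 12606) lies at chr7:35904312-35906945 on the plus strand and Cebpg (gene 12611) at chr7:35831441-35841522 on the minus strand, so both are neighbours on chromosome 7. Cebpb (gene 12608) lies at chr2:167514415-167515918 on the plus strand and shares 312 of its 1504 exon bases (20.7%) with Tmem189 on the other strand. Whether the counting used strand is not given in the sources used here, so reads in that stretch cannot be assigned with certainty. Tmem189 stood at 16.5 to 36.4 CPM (counts per 1000000 counts of the library after TMM scaling), below Cebpb in every library. Cebpd (gene 12609) lies at chr16:15887379-15888559 on the plus strand. A search of the genome for near-identical copies (divergence at most 0.02 over at least 50% of the transcript) found 0 for Cebpa, Cebpb and Cebpg, and was not made for Cebpd.

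Library totals ran from 22450177 to 46599238 counts. The label checks held: Hsf1 stood at 21.1 to 29.0 CPM in Hsf1-/- libraries and 45.3 to 68.5 CPM elsewhere. The heat shock gene Hspa1a reached 961 and 1063 CPM in wild type HS mice against 3.0 and 1.91 CPM in Hsf1-/- HS mice. The 12 defining markers of skeletal muscle were abundant everywhere but summed to 62235 to 119900 CPM in the 8 R6/2 libraries against 245257 to 347062 CPM in the other 16, and in bulk muscle fewer cells of a type and less RNA per cell cannot be told apart. Hsf1-/- HSP990 replicate 1 stood apart by its 8 adipocyte markers, with 2248 CPM in sum against 220 to 1531 CPM in the other 23 libraries, and the HSP990 responses of members that rest on it are given with and without it. Y-linked genes summed to 0 to 0.0881 CPM in wild type and R6/2 mice of the heat shock experiment and to 163 to 230 CPM in all other mice, so no heat shock or HSP990 comparison within a genotype crosses that line.

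All 4 members were expressed in every library, Cebpb at the highest level for its length. The median over the 24 libraries was 78.3 CPM per kb of exon for Cebpb, 36.1 for Cebpd, 23.2 for Cebpg and 9.63 for Cebpa. Cebpd had the widest range, from 8.08 to 224 CPM (27.7-fold), followed by Cebpa from 10.8 to 156 CPM (14.3-fold). Cebpb spanned 69.0 to 330 CPM (4.79-fold) and Cebpg 80.3 to 209 CPM (2.6-fold). The range of Cebpa came from single mice rather than groups: the higher mouse of a group exceeded the lower by a median of 1.87-fold, up to 6.87-fold in Hsf1-/- HSP990 mice. The same ratio had a median of 1.34 for Cebpd, 1.17 for Cebpb and 1.09 for Cebpg, with the largest for Cebpd in Hsf1-/- vehicle (4.11) and R6/2 control (2.78) mice.

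**Figure D1:**
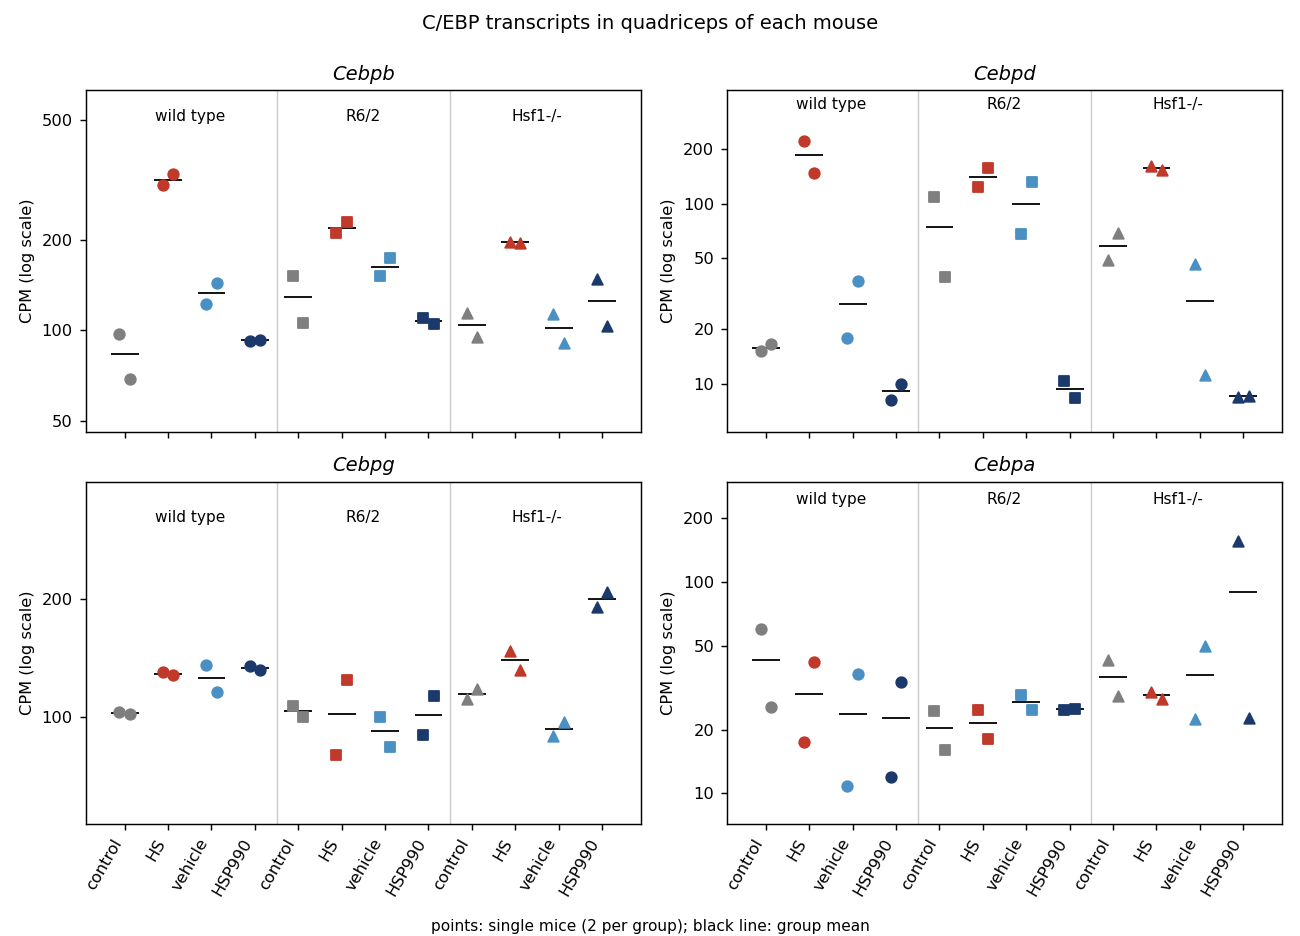
Level of each member in every mouse (CPM after TMM scaling, log axis) by genotype and treatment, with points for the 2 mice of a group and black lines for group means. Cebpd is lowest in the 3 HSP990 groups (8.08 to 10.3 CPM) and highest in the 3 HS groups (123 to 224 CPM), whereas Cebpg is highest in Hsf1-/- HSP990 mice (191 and 209 CPM).

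With the 12 groups ordered by mean level, Cebpd ran from the 3 HSP990 groups (8.49, 9.06 and 9.3 CPM for Hsf1-/-, wild type and R6/2) up to the 3 HS groups (140, 157 and 186 CPM for R6/2, Hsf1-/- and wild type). Of its 11 steps between neighbouring groups, 3 separated the mice without overlap: from HSP990 to wild type control, to wild type vehicle and to Hsf1-/- control. Cebpb ran from 83.3 CPM ± 20.2 (SD, n = 2) in wild type control to 317 CPM ± 19.1 in wild type HS mice. Its top 4 groups, R6/2 vehicle, Hsf1-/- HS, R6/2 HS and wild type HS, each lay apart from the group below, and its other neighbours overlapped. For Cebpg 3 of 11 steps lay apart, the last one up to Hsf1-/- HSP990 mice (200 CPM ± 12.7). For Cebpa all neighbouring groups overlapped.

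Heat shock was first compared in wild type mice, the contrast behind the choice of this family. Cebpb stood at 97.6 and 69.0 CPM in control and 303 and 330 CPM in HS mice. Cebpd stood at 15.1 and 16.6 CPM in control and 224 and 148 CPM in HS mice. The fitted differences were 1.93 ± 0.203 (log2 fold change ± SE) for Cebpb and 3.55 ± 0.575 for Cebpd, or 3.8-fold and 11.7-fold. Cebpg was at 103 and 102 CPM in control and 130 and 128 CPM in HS mice (0.33 ± 0.163). Cebpa was at 60.2 and 25.6 CPM in control and 17.6 and 41.7 CPM in HS mice. The mice of both groups did not overlap for Cebpb, Cebpd and Cebpg, all higher, where 23.1% of the 13754 genes tested were also higher without overlap. Among all genes 2.06% were called in this comparison (edgeR's quasi-likelihood fit, p adjusted by Benjamini-Hochberg and below 0.05, the rule used throughout).

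In R6/2 mice, Cebpb and Cebpd were also higher after heat shock, without passing the test. Cebpb was at 152 and 106 CPM in control and 210 and 229 CPM in HS mice, a 1.7-fold difference (log2 0.77 ± 0.197, 95% interval 0.35 to 1.18, adjusted p = 0.19). Cebpd was at 109 and 39.2 CPM in control and 123 and 158 CPM in HS mice, a 1.89-fold difference (0.92 ± 0.519, interval -0.18 to 2.02, adjusted p = 0.68). For both, the lower HS mouse lay above the higher control mouse, as held for 15.1% of all genes. R6/2 control replicate 1 was already near the HS level of Cebpd, and without it the difference was 1.84 on the log2 scale, against 0.36 without replicate 2. Cebpg overlapped, at 107 and 100 CPM against 80.3 and 124 CPM, and so did Cebpa, at 24.6 and 16.1 CPM against 24.9 and 18.0 CPM. edgeR called 0 of 4 members, with 1 at an unadjusted p under 0.05 (8.12% of all genes were), and 0.0436% of all genes (6 genes, and 500 without R6/2 HS replicate 2). DESeq2 called 1, Cebpb (0.76, adjusted p = 0.033).

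In Hsf1-/- mice, which lack heat shock factor 1, Cebpb and Cebpd were higher after heat shock as well, again without passing the test. Cebpb was at 114 and 94.9 CPM in control and 197 and 195 CPM in HS mice, 1.88-fold (0.91 ± 0.198, interval 0.49 to 1.33, adjusted p = 0.086). Cebpd was at 48.7 and 68.2 CPM in control and 161 and 154 CPM in HS mice, 2.69-fold (1.43 ± 0.527, interval 0.31 to 2.54, adjusted p = 0.39). Cebpg was at 111 and 118 CPM in control and 147 and 132 CPM in HS mice (0.29, adjusted p = 0.69), so 3 members were higher without overlap, as were 20.8% of all genes. Cebpa overlapped, at 42.6 and 28.8 CPM against 30.1 and 28.0 CPM. edgeR called 0 of 4 members and 0.00727% of all genes (1 gene), with 2 members at an unadjusted p under 0.05 (8.8% of all genes were), while DESeq2 called Cebpb (0.91, adjusted p = 0.0033). With only the 4 libraries compared in the fit, edgeR called Cebpb (0.91, adjusted p = 0.03) and Cebpd (1.43, adjusted p = 0.021).

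The heat response averaged over R6/2 and Hsf1-/- mice, a contrast added after the values had been seen, was called for Cebpb. It rose 1.79-fold (0.84 ± 0.14, interval 0.54 to 1.13, adjusted p = 0.0083), higher in 4 of 4 HS mice than in the control mice of their genotype, where 1.57% of all genes were called (216 genes, between 24 without Hsf1-/- control replicate 2 and 856 without R6/2 HS replicate 2). The call did not hold when R6/2 control replicate 2 (adjusted p = 0.051) or Hsf1-/- control replicate 2 (adjusted p = 0.056) was left out, with values of 0.72 to 0.98 over the 8 mice left out in turn. Cebpd had a mean difference of 1.17 ± 0.369 (interval 0.39 to 1.95, adjusted p = 0.14), Cebpg 0.13 (adjusted p = 0.68) and Cebpa -0.11 (adjusted p = 0.97). Both Cebpb and Cebpd were higher without overlap in both genotypes, as were 6.09% of all genes. The difference between the R6/2 and Hsf1-/- responses was not called for any member (0 of 4 by edgeR, 0 by DESeq2 and 0 at an unadjusted p under 0.05, against 0.0% of all genes called and 3.64% at an unadjusted p under 0.05), at -0.15 for Cebpb and -0.51 for Cebpd (adjusted p = 1.0 for both), and its sign turned for both when single mice were left out.

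**Figure D2:**
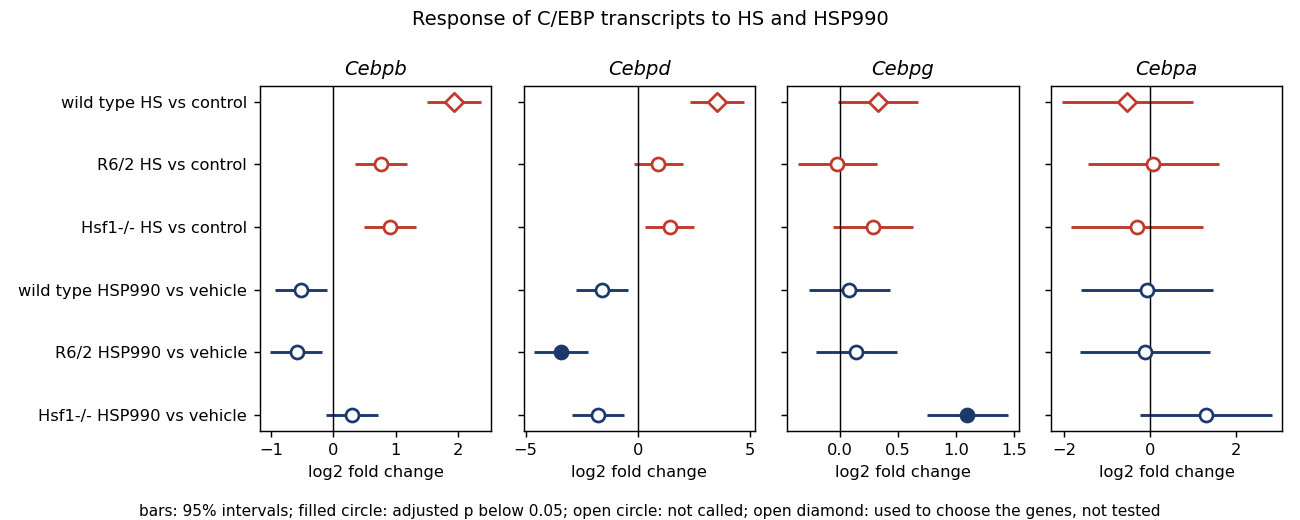
Log2 fold changes of the 4 members with 95% intervals in the 6 treatment comparisons, from the edgeR fit. Filled points passed an adjusted p of 0.05, here Cebpd in R6/2 HSP990 mice (-3.41) and Cebpg in Hsf1-/- HSP990 mice (1.1), and open diamonds mark the wild type heat shock comparison, which was not tested.

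HSP990 was compared with vehicle in mice that had no part in the choice of the family. Cebpd, the member most raised by heat in wild type mice, was lower after HSP990 in all 3 genotypes, and fell past the threshold in R6/2 mice. Cebpd was at 67.4 and 131 CPM in R6/2 vehicle and 10.3 and 8.3 CPM in R6/2 HSP990 mice, a fall of 10.7-fold (-3.41 ± 0.572, interval -4.62 to -2.20, adjusted p = 0.0047). It was at 18.0 and 37.2 CPM in wild type vehicle and 8.08 and 10.0 CPM in wild type HSP990 mice (-1.60 ± 0.551, interval -2.77 to -0.44, adjusted p = 0.18). In all 6 HSP990 mice Cebpd lay in a narrow band, whereas the vehicle mice spread widely.

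In Hsf1-/- mice Cebpd was at 46.0 and 11.2 CPM with vehicle and 8.44 and 8.54 CPM with HSP990 (-1.75 ± 0.551, interval -2.91 to -0.59, adjusted p = 0.29). That value was -0.40 without vehicle replicate 1 and -2.44 without vehicle replicate 2. The HSP990 mice lay below the vehicle mice of their genotype in all 3 comparisons, as held for 2.67% of all genes. For single genotypes that share was 24.7% in wild type, 17.9% in R6/2 and 19.4% in Hsf1-/- mice. Averaged over the 3 genotypes, a contrast added after the values had been seen, Cebpd fell by 2.25 on the log2 scale (4.77-fold, SE 0.32, interval -2.93 to -1.58, adjusted p = 0.00039), with 4.65% of all genes called. This call held without any 1 of the 12 mice (-2.48 to -1.8). The R6/2 call did not hold without 3 of the 4 mice, vehicle replicate 2 (-2.86, adjusted p = 0.058), HSP990 replicate 1 (adjusted p = 0.066) and HSP990 replicate 2 (adjusted p = 0.085), nor with only the 4 libraries compared in the fit (-3.42, adjusted p = 0.067). The Cebpd response did not differ by the test between genotypes, at -1.81 for R6/2 minus wild type (adjusted p = 0.64), -1.66 for R6/2 minus Hsf1-/- (adjusted p = 0.64) and -0.15 for Hsf1-/- minus wild type (adjusted p = 0.99).

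Cebpb was lower after HSP990 in wild type and R6/2 mice, without passing the test. It was at 122 and 144 CPM in wild type vehicle and 92.4 and 92.9 CPM in HSP990 mice (-0.52 ± 0.197, interval -0.94 to -0.10, adjusted p = 0.24). In R6/2 mice it was at 151 and 174 CPM with vehicle and 110 and 105 CPM with HSP990 (-0.59, interval -1.01 to -0.18, adjusted p = 0.22). The Hsf1-/- mice overlapped, at 113 and 90.7 CPM with vehicle and 148 and 103 CPM with HSP990 (0.30, interval -0.12 to 0.71, adjusted p = 0.68). Without Hsf1-/- HSP990 replicate 1 that difference was 0.022. The Cebpb response of Hsf1-/- mice exceeded that of wild type mice by 0.82, which did not pass the test (adjusted p = 0.45).

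Cebpg, the dimer partner, rose after HSP990 in Hsf1-/- mice. It was at 89.3 and 97.3 CPM with vehicle and 191 and 209 CPM with HSP990, 2.14-fold (1.1 ± 0.165, interval 0.75 to 1.45, adjusted p = 0.0048), and the HSP990 mice had the 2 highest Cebpg levels of all 24 libraries. Without Hsf1-/- HSP990 replicate 1, the mouse rich in adipocyte markers, the value was 1.17 (adjusted p = 0.023), and without vehicle replicate 1 the call was lost (1.04, adjusted p = 0.1). Of all genes 0.218% were called in this comparison (30 genes, between 11 without vehicle replicate 1 and 146 without HSP990 replicate 2), and 18.7% were higher without overlap. With only the 4 libraries compared in the fit, Cebpg was not called (1.11, adjusted p = 0.18).

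In wild type mice Cebpg was at 136 and 116 CPM with vehicle and 135 and 132 CPM with HSP990 (0.083, adjusted p = 0.87). In R6/2 mice it was at 100 and 83.9 CPM with vehicle and 90.1 and 113 CPM with HSP990 (0.14, adjusted p = 0.91). Both pairs of groups overlapped. The Hsf1-/- response exceeded the wild type response by 1.02 (interval 0.53 to 1.5, adjusted p = 0.085) and the R6/2 response by 0.96 (adjusted p = 0.15), neither past the threshold with edgeR, while DESeq2 called both (1.03, adjusted p = 0.011, and -0.98 for R6/2 minus Hsf1-/-, adjusted p = 0.025). edgeR called 0 of 4 members in the 3 tests of a difference in HSP990 response, where 0.0% (R6/2 minus wild type), 0.422% (Hsf1-/- minus wild type) and 0.218% (R6/2 minus Hsf1-/-) of all genes were called. At an unadjusted p under 0.05 were 1, 2 and 3 members in that order, against 7.13%, 6.89% and 7.51% of all genes, and DESeq2 called 0, 1 and 1. Averaged over the 3 genotypes, a contrast added after the values had been seen, Cebpg rose by 0.44 ± 0.0941 on the log2 scale (interval 0.24 to 0.64, adjusted p = 0.01), with 4.65% of all genes called. That mean rested mostly on the Hsf1-/- response of 1.1, against 0.083 in wild type and 0.14 in R6/2 mice. It spanned 0.38 to 0.49 with single mice left out, which always kept an Hsf1-/- HSP990 mouse in the fit.

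Cebpa did not pass the test after HSP990 in any genotype. It was at 10.8 and 36.8 CPM in wild type vehicle and 12.0 and 33.5 CPM in HSP990 mice, and at 29.3 and 24.9 CPM in R6/2 vehicle and 24.9 and 25.1 CPM in HSP990 mice. In Hsf1-/- mice it was at 22.5 and 49.8 CPM with vehicle and 156 and 22.7 CPM with HSP990 (1.31 ± 0.726, interval -0.23 to 2.84, adjusted p = 0.62). The 156 CPM belong to the mouse with the highest adipocyte sum, without which the difference was -0.67. In all 6 treatment comparisons the treated and untreated mice overlapped for Cebpa. Over the members, edgeR called 0 of 4 in wild type HSP990 mice (2 at an unadjusted p under 0.05 with 13.2% of all genes, 0 by DESeq2, 1.85% of all genes called), 1 of 4 in R6/2 mice (Cebpd, 1.43% of all genes) and 1 of 4 in Hsf1-/- mice (Cebpg).

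Heat shock and HSP990 were then compared as responses within a genotype. In R6/2 mice the response to heat exceeded that to HSP990 for Cebpd by 4.33 ± 0.765 (interval 2.71 to 5.95, adjusted p = 0.0058) and for Cebpb by 1.36 ± 0.278 (interval 0.77 to 1.95, adjusted p = 0.016), where 1.63% of all genes were called. The Cebpd call held without any 1 of the 8 mice (3.77 to 5.25), and both calls were lost with only the groups compared in the fit (adjusted p = 0.053 for Cebpd and 0.088 for Cebpb). The Cebpb call was lost without 4 of the 8, R6/2 control replicate 2 (adjusted p = 0.1), vehicle replicate 2 (0.094 adjusted), HSP990 replicate 1 (0.052 adjusted) and HSP990 replicate 2 (0.073 adjusted). In Hsf1-/- mice 0 of 4 members were called by edgeR, where 0.145% of all genes were, with 3 members at an unadjusted p under 0.05 (10.9% of all genes were) and 1 called by DESeq2. Cebpd differed by 3.18 ± 0.762 there (interval 1.57 to 4.79, adjusted p = 0.12), a value that passed with DESeq2 (3.17, adjusted p = 0.013) and without Hsf1-/- vehicle replicate 2 (3.87, adjusted p = 0.027). Cebpb differed by 0.61 (adjusted p = 0.44) and Cebpg by -0.81 (adjusted p = 0.19) in Hsf1-/- mice. The heat shock and HSP990 experiments used different animals, which differed in age for Hsf1-/- and in Y-linked RNA for R6/2 mice.

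Between vehicle mice, Cebpd was higher in R6/2 than in wild type muscle. The levels were 67.4 and 131 CPM in R6/2 and 18.0 and 37.2 CPM in wild type mice, 3.59-fold (1.84 ± 0.536, interval 0.71 to 2.98, adjusted p = 0.023). Both R6/2 mice lay above both wild type mice, as held for 32.6% of all genes. In this comparison 19.2% of all genes were called. The call was lost without wild type vehicle replicate 1 (1.41, adjusted p = 0.2), without R6/2 vehicle replicate 2 (1.29, adjusted p = 0.18) and with only the 4 libraries compared in the fit (1.82, adjusted p = 0.058). Cebpb differed by 0.29 (adjusted p = 0.34) and Cebpa by 0.18 (adjusted p = 0.89). Cebpg differed by -0.45 (adjusted p = 0.062), a direction that flipped to 0.22 when libraries were scaled by their totals only. The median over all genes was 0.066 under TMM and 0.74 under that scaling, and the 20 highest genes held 14.7 to 21.9% of counts in R6/2 and at least 32.7% in the other libraries. All 12 skeletal muscle markers were called lower in R6/2 vehicle mice (median -2.1), and their part in the Cebpd difference was not tested.

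Between Hsf1-/- and wild type vehicle mice edgeR called 0 of 4 members and 0.0872% of all genes, with 1 member at an unadjusted p under 0.05 (9.15% of all genes were) and 0 by DESeq2. Cebpb was at -0.38 (adjusted p = 0.6), Cebpd at 0.049 (adjusted p = 0.99), Cebpg at -0.43 (adjusted p = 0.44) and Cebpa at 0.60 (adjusted p = 0.87). The control mice of the heat shock experiment gave values that share wild type mice with the rule and carry no test. There Cebpd stood 2.22 higher in R6/2 and 1.88 higher in Hsf1-/- than in wild type mice on the log2 scale. Cebpb stood 0.63 and 0.32 higher, and Cebpg differed by 0.012 and 0.16. The Hsf1-/- control mice differ from the wild type control mice in age and in Y-linked RNA, and neither can be told apart from genotype.

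Levels of the members were set beside each other over the 24 libraries, which share group structure and scaling, so these are descriptions. Cebpb and Cebpd followed each other, with Pearson's r of 0.79 (Spearman's rho 0.78) on log2(CPM + 0.5). Without the 2 libraries farthest from the median of Cebpd r was 0.748, and over the 20 libraries other than wild type HS and control it was 0.769 (rho 0.764). The other 5 pairs of members lay between -0.23 and 0.18. Cebpa followed the summed adipocyte markers instead, with r of 0.839 (rho 0.774) over 24 libraries. That r was 0.702 over the 22 left without the 2 libraries farthest from the median of the marker sum. Cebpa is itself expressed in adipocytes, and the part of these cells in its level was not tested.

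**Figure D3:**
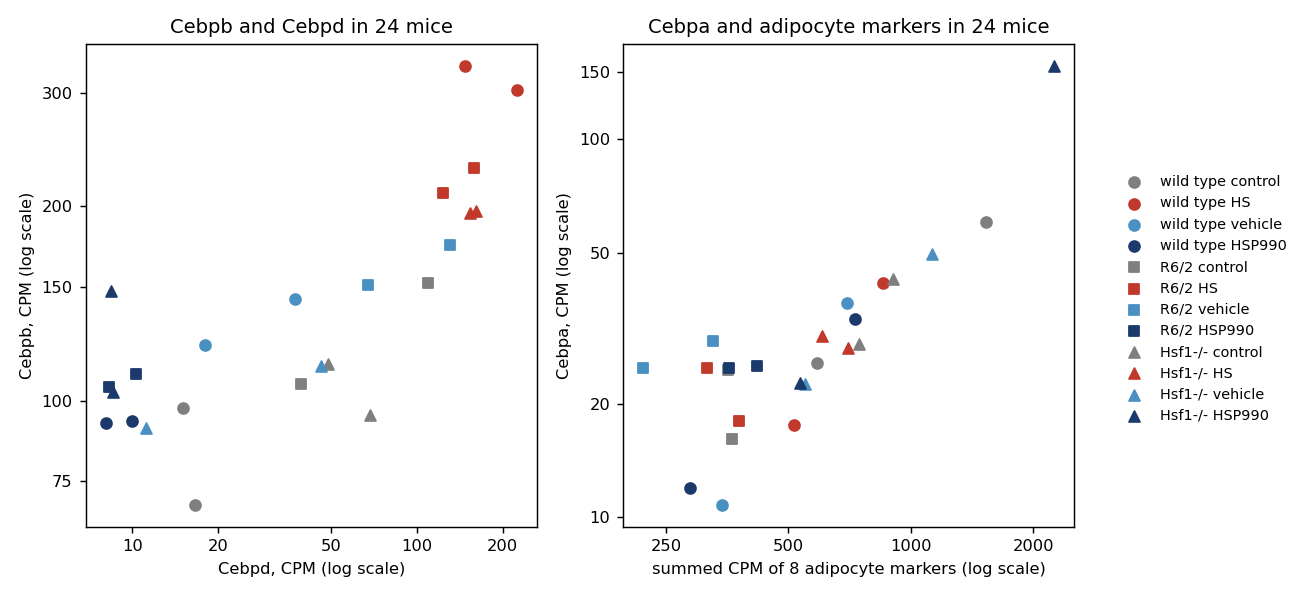
Levels in each of the 24 mice on log axes, Cebpb against Cebpd in CPM on the left and Cebpa against the summed CPM of 8 adipocyte markers on the right. HS mice lie at the upper right of the first panel and HSP990 mice along its left edge, and the mouse with 156 CPM of Cebpa has the highest adipocyte sum, 2248 CPM.

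Genes whose pattern over the 24 libraries was most like each member were named by their r among 11119 genes of at least 1 CPM on average. These libraries include the wild type HS and control mice behind the choice of the family. The ranking was not repeated without them, so it is a description only. For Cebpd they were Rhob (a small GTPase), Kcna5 (a voltage-gated potassium channel) and Ddit4 (an inhibitor of mTORC1 induced by stress), each with r of 0.961. Ddit4 stood at 505 and 492 CPM in wild type HS and at 3.94 and 5.81 CPM in wild type HSP990 mice. For Cebpb they were Maff (a small MAF factor, 0.9), Tiparp (a mono-ADP-ribosyltransferase, 0.892) and Bcl2l1 (an inhibitor of apoptosis, 0.876). For Cebpg they were Mthfd2 (mitochondrial folate enzyme, 0.866), Mapk6 (an atypical MAP kinase, 0.843) and Xpot (the tRNA exporter, 0.812). Mthfd2 stood at 51.6 and 65.1 CPM in Hsf1-/- HSP990 mice, against 3.61 to 13.7 CPM in the other 22 libraries. For Cebpa they were Car5b (0.941), Csad (0.938) and Hacd2 (0.937), all highest in Hsf1-/- HSP990 replicate 1.

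Other relatives of the family were few. Ddit3 (CHOP), a C/EBP protein of the integrated stress response that blocks the DNA binding of its partners, rose with HSP990 in Hsf1-/- mice. It was at 8.95 and 11 CPM with vehicle and 44.6 and 92.8 CPM with HSP990 (2.78 ± 0.421, adjusted p = 0.0049), and the call was lost without vehicle replicate 1 (2.65, adjusted p = 0.11) or vehicle replicate 2 (2.94, adjusted p = 0.065), and with only the 4 libraries compared in the fit (adjusted p = 0.32). Averaged over the 3 genotypes, the contrast added after the values had been seen, Ddit3 rose by 1.6 (adjusted p = 0.00051), with 4.65% of all genes called. The uncalled values of wild type and R6/2 mice were 0.76 and 1.24. edgeR did not call Cebpz in any comparison, and Cebpe had at most 7 counts in a library and was above 0 in 6 libraries, so it was not tested.

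Among 15 tested bZIP partners (ATF, FOS, JUN and PAR factors that can pair with C/EBP proteins or share their sites) edgeR called 0 in R6/2 HS, Hsf1-/- HS, R6/2 HSP990 and Hsf1-/- HSP990 mice (2, 4, 3 and 4 at an unadjusted p under 0.05, where 8.12%, 8.8%, 9.5% and 9.48% of all genes were, and 1, 3, 0 and 1 by DESeq2). Medians were 0.09, 0.21, 0.15 and 0.2, against 0.0011, 0.0025, 0.011 and 0.0099 over all genes. In wild type HSP990 mice, where 1.85% of all genes were called, 2 rose, Jun (1.29) and Jund (1.08). Jun was lost without any 1 of the 4 mice (1.14 to 1.45, adjusted p up to 0.38), and Jund without either vehicle mouse or HSP990 replicate 2 (0.75 to 1.35, adjusted p up to 0.27) and with only the 4 libraries compared in the fit (adjusted p = 0.073). Atf4, the partner of Cebpg at amino acid response sites, was at 275 and 303 CPM with vehicle and 400 and 451 CPM with HSP990 in Hsf1-/- mice (0.56, adjusted p = 0.29). Between vehicle mice Atf4 was lower in R6/2 than in wild type mice (-0.79, adjusted p = 0.005), where 19.2% of all genes were called. With only the 4 libraries compared in the fit it was called too (-0.81, adjusted p = 0.042), and it spanned -1.05 to -0.57 with single mice left out, where 1 fit lost the call. Atf3, induced by many stresses, reached 533 CPM in 1 Hsf1-/- HS mouse and 32.1 CPM in the other, and edgeR did not call it in any comparison. The repressor Nfil3 rose in the mean heat response of R6/2 and Hsf1-/- mice (1.45, adjusted p = 0.023), a call lost without R6/2 control replicate 2, R6/2 HS replicate 1, either Hsf1-/- control mouse or Hsf1-/- HS replicate 1 (1.09 to 1.71, adjusted p up to 0.13).

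Cytokine, glucocorticoid and kinase signals known to induce Cebpb and Cebpd were taken as a list, with 25 of its genes tested. In R6/2 HSP990 mice 3 fell and 0 rose: Nfkbia (the inhibitor IκBα, -2.2, adjusted p = 0.0096), Il1r1 (the interleukin-1 receptor, -1.42, adjusted p = 0.0088) and Osmr (the oncostatin M receptor, -1.33, adjusted p = 0.022), where 1.43% of all genes were called. Nfkbia was at 19.8 and 60.1 CPM with vehicle and 8.99 and 8.45 CPM with HSP990, so the vehicle mouse with more Cebpd had more Nfkbia too. All 3 calls were lost without R6/2 vehicle replicate 2 (Nfkbia -1.19, Il1r1 -0.84, Osmr -0.69, adjusted p = 0.22, 0.18 and 0.42), and also without either HSP990 mouse, with adjusted p from 0.063 to 0.22, and with only the 4 libraries compared in the fit (adjusted p = 0.24, 0.24 and 0.34). The list's median was -0.043, against 0.011 over all genes, and edgeR called 0 of the 25 in R6/2 HS, Hsf1-/- HS, wild type HSP990 and Hsf1-/- HSP990 mice (7, 8, 2 and 1 at an unadjusted p under 0.05, where 8.12%, 8.8%, 13.2% and 9.48% of all genes were, and 2, 2, 0 and 0 by DESeq2).

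In the mean heat response of R6/2 and Hsf1-/- mice 4 of the 25 rose and 0 fell, Osmr (1.29, adjusted p = 0.0046), Il1r1 (1.04, adjusted p = 0.012), Stat3 (0.56, adjusted p = 0.023) and Tnfrsf1a (0.49, adjusted p = 0.029). Over all genes 1.57% were called there. Osmr was at 17.0 and 13.1 CPM in R6/2 control and 34.2 and 32.8 CPM in R6/2 HS mice, and at 14.5 and 20.6 CPM in Hsf1-/- control and 53.8 and 41.2 CPM in Hsf1-/- HS mice. Its call held without any 1 of the 8 mice (1.18 to 1.43), while the other 3 were lost without R6/2 control replicate 2, either Hsf1-/- control mouse or Hsf1-/- HS replicate 1. Stat3 and Tnfrsf1a were lost without R6/2 HS replicate 1 too, and Tnfrsf1a without R6/2 control replicate 1, and both with only the 8 libraries compared in the fit (adjusted p = 0.084 and 0.19), with values of 0.92 to 1.14 for Il1r1, 0.46 to 0.64 for Stat3 and 0.35 to 0.61 for Tnfrsf1a and adjusted p up to 0.14. Of 14 genes tested from a list of regulators of C/EBP proteins, which held Trib1, Trib2 and Trib3 of the Tribbles pseudokinases, 1 rose in Hsf1-/- HSP990 mice. This was Trib3 (5.84 ± 0.461, adjusted p = 4.2e-06), where 0.218% of all genes were called, and edgeR called 0 in wild type and R6/2 HSP990 mice (3 and 1 at an unadjusted p under 0.05, where 13.2% and 9.5% of all genes were, and 1 and 0 by DESeq2). Trib3, itself a target of ATF4 and CHOP, was at 1.04 and 2.57 CPM with vehicle and 65.6 and 143 CPM with HSP990. Its call held without any 1 of the 4 mice and was lost with only the 4 libraries compared in the fit (5.85, adjusted p = 0.18). In the mean heat response of R6/2 and Hsf1-/- mice 1 of the 14 fell and 0 rose, Trib2 (-1.12, adjusted p = 0.037), where 1.57% of all genes were called. That call held with only the 8 libraries compared in the fit (-1.14, adjusted p = 0.0062), but not in most fits with 1 mouse left out (-1.22 to -1.01).

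**Figure D4:**
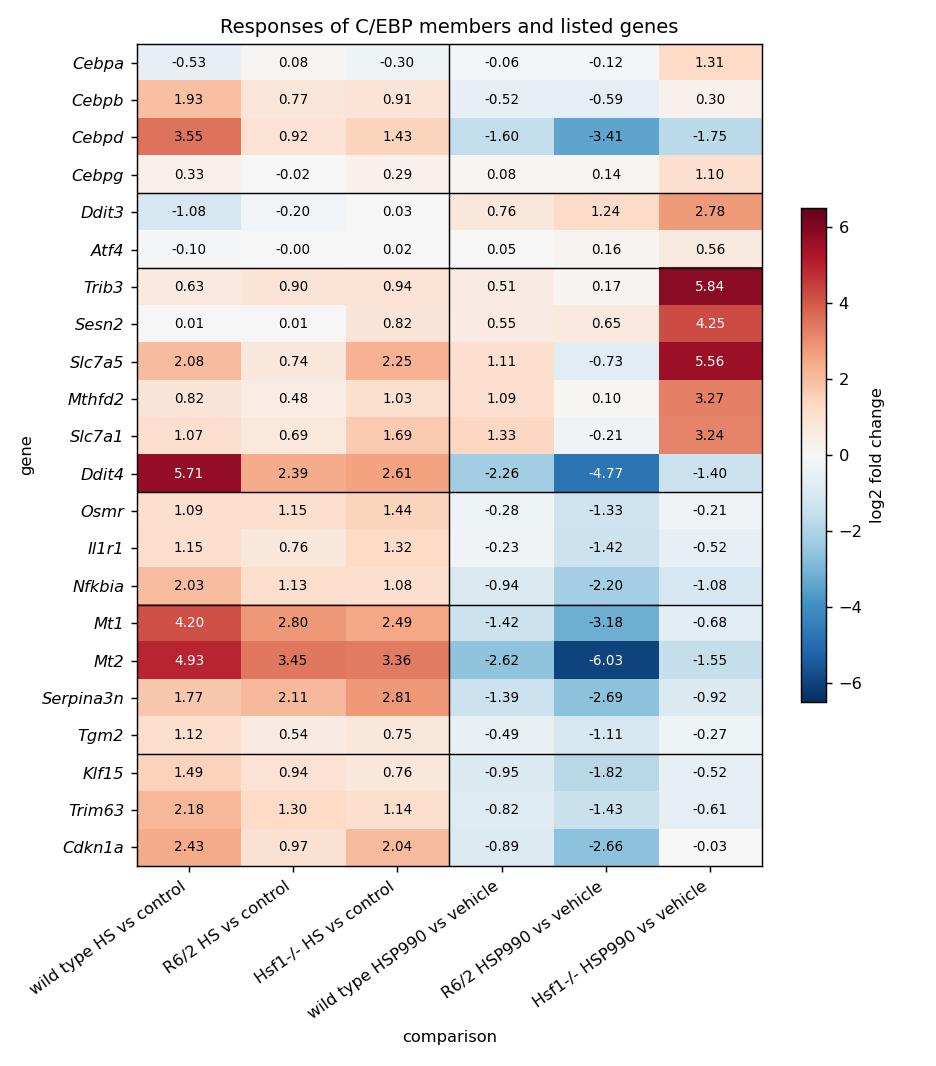
Log2 fold changes of the 4 members and of named signal, partner and target genes in the 6 treatment comparisons, as colours from blue (lower) to red (higher). Cebpd, Ddit4 and Mt2 are red in the HS columns and blue in the HSP990 columns of R6/2 mice, whereas Cebpg, Trib3, Slc7a5 and Sesn2 are red for HSP990 in Hsf1-/- mice.

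Acute phase and inflammatory genes driven by Cebpb and Cebpd in other tissues were taken as a list, of which 20 of 28 passed the filter. In R6/2 HSP990 mice, where 1.43% of all genes were called, 4 fell and 0 rose, with a list median of -0.7 against 0.011 over all genes. These were the metallothioneins Mt2 (-6.03, adjusted p = 0.0096) and Mt1 (-3.18, adjusted p = 0.038), the protease inhibitor Serpina3n (-2.69, adjusted p = 0.019) and the transglutaminase Tgm2 (-1.11, adjusted p = 0.0014). Mt2 was at 10.3 and 105 CPM with vehicle and 0.413 and 1.29 CPM with HSP990. Tgm2 was at 272 and 308 CPM against 130 and 139 CPM and held without any 1 of the 4 mice, while the other 3 were lost without R6/2 vehicle replicate 2 (Mt2 -3.55, Mt1 -1.65, Serpina3n -2.03, adjusted p = 0.16, 0.52 and 0.23) and without either HSP990 mouse (adjusted p = 0.082 to 0.32). With only the 4 libraries compared in the fit all 4 were lost (adjusted p = 0.2 for Mt2, 0.24 for Mt1, 0.14 for Serpina3n and 0.067 for Tgm2). The macrophage and leukocyte markers summed to 109 and 78.9 CPM in R6/2 vehicle and 67.2 and 68.7 CPM in R6/2 HSP990 mice, and S100a8, S100a9 and Cd3e were among those of the 13 markers that reached 0 in some libraries. Their part in the falls was not tested.

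In the mean heat response of R6/2 and Hsf1-/- mice 5 of the 20 rose and 0 fell, Mt2 (3.4), Mt1 (2.64), Ccl2 (2.53), Serpina3n (2.46) and Tgm2 (0.64), with a list median of 0.7 against 0.00019 over all genes. The share called over all genes was 1.57%. Serpina3n was at 3.83 and 1.72 CPM in R6/2 control and 12.4 and 11.6 CPM in R6/2 HS mice, and at 1.79 and 3.92 CPM in Hsf1-/- control and 22.5 and 17.2 CPM in Hsf1-/- HS mice. Its call held without any 1 of the 8 mice (2.22 to 2.8), and the other 4 were lost without R6/2 control replicate 2, R6/2 HS replicate 1, either Hsf1-/- control mouse or Hsf1-/- HS replicate 1 (Mt2 3.09 to 3.97, Mt1 2.31 to 2.97, Ccl2 1.58 to 3.25 and Tgm2 0.53 to 0.74, adjusted p up to 0.27), and Ccl2 also without R6/2 control replicate 1. Ccl2 and Tgm2 were lost too with only the 8 libraries compared in the fit (adjusted p = 0.17 and 0.061). In Hsf1-/- HS mice alone edgeR called 0 of 20 (8 at an unadjusted p under 0.05, where 8.8% of all genes were, and 5 by DESeq2), and 17 of 20 had a value above 0 (median 1.11). In R6/2 HS mice alone 12 of 20 had a value above 0 (median 0.46). There edgeR called 0 (6 at an unadjusted p under 0.05, where 8.12% of all genes were, and 3 by DESeq2). In wild type HS mice 11 of 20 had a value above 0 (median 0.24). There edgeR called 3, Mt1, Mt2 and Tgm2, where 2.06% of all genes were called. The list was chosen with earlier results of these data known, and its counts are a description.

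Among 24 tested targets of the amino acid and integrated stress response, where Cebpg and ATF4 pair, 8 rose and 0 fell in Hsf1-/- HSP990 mice (median 0.96, 22 of 24 above 0, with 0.218% of all genes called). They included Sesn2 (a stress-induced regulator of mTORC1, 4.25 ± 0.287, adjusted p = 8e-07), Slc7a5 (a neutral amino acid transporter, 5.56 ± 0.461, adjusted p = 6e-06), Mthfd2 (3.27 ± 0.311, adjusted p = 2.6e-05) and Slc7a1 (3.24 ± 0.393, adjusted p = 0.00051). Sesn2 was at 4.1 and 3.78 CPM with vehicle and 57.2 and 92.4 CPM with HSP990, and Slc7a5 at 0.282 and 0.374 CPM against 12.8 and 18.7 CPM. The calls of these 4 and of Trib3 held without any 1 of the 4 mice. Of the other 3, Fgf21 (a stress hormone) was lost without any 1 of the 4 mice (adjusted p = 0.057 to 0.2), Aars (alanyl-tRNA synthetase) without either vehicle mouse or HSP990 replicate 2 (0.74 to 0.97, adjusted p up to 0.2) and Psat1 (an enzyme of serine synthesis) without vehicle replicate 1 (adjusted p = 0.13). In wild type HSP990 mice edgeR called 0 of 24 (median 0.25, with 6 at an unadjusted p under 0.05, where 13.2% of all genes were, and 2 by DESeq2). In R6/2 HSP990 mice, where 1.43% of all genes were called, 1 was, Ddit4, which fell (-4.77, adjusted p = 0.014), from 50.2 and 281 CPM to 4.99 and 7.09 CPM. That call was lost without R6/2 vehicle replicate 2 (-3.05, adjusted p = 0.19) or either HSP990 mouse (adjusted p = 0.2 and 0.12), and with only the 4 libraries compared in the fit (adjusted p = 0.15). With only the 4 libraries compared in the fit all 8 calls in Hsf1-/- HSP990 mice were lost, with adjusted p = 0.083 for Sesn2, 0.08 for Slc7a5 and Slc7a1 and 0.085 for Mthfd2.

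Adipogenic targets of Cebpa and Cebpb, 16 genes, had 0 called by edgeR in Hsf1-/- HSP990 mice (13 above 0, median 0.83, with 5 at an unadjusted p under 0.05, where 9.48% of all genes were, and 1 by DESeq2). The 16 include all 8 adipocyte markers, so the target list and the marker list are not separate. These Hsf1-/- list values include HSP990 replicate 1, with 2248 CPM of adipocyte markers against 534 CPM in replicate 2, and were not computed without it. In R6/2 HSP990 mice 1 of the 16 was called, the lipid droplet protein gene Plin4 (-1.4, adjusted p = 0.024), where 1.43% of all genes were. In R6/2 against wild type vehicle mice 3 of the 16 were lower and 0 higher, Dgat2 (-1.77), Slc2a4 (-1.38) and Lpl (-1.16), against 19.2% of all genes called there. The 8 adipocyte markers had a median of -1.05 in that comparison, with 0 called by edgeR, 0 by DESeq2 and 0 at an unadjusted p under 0.05. Of 13 tested muscle genes of wasting, growth arrest and glucocorticoid response, 3 fell and 0 rose in R6/2 HSP990 mice, against 1.43% of all genes called: Cdkn1a (p21, -2.66, adjusted p = 0.026), Klf15 (a glucocorticoid-induced factor, -1.82, adjusted p = 0.00084) and Trim63 (the ubiquitin ligase MuRF1, -1.43, adjusted p = 0.049). Klf15 was at 153 and 215 CPM with vehicle and 61.2 and 43.0 CPM with HSP990, and its call held without any 1 of the 4 mice but not with only the 4 libraries compared in the fit (adjusted p = 0.092). Plin4, Cdkn1a and Trim63 were lost without R6/2 vehicle replicate 2 (-1.0, -1.93 and -0.74, adjusted p = 0.33, 0.29 and 0.57), without either HSP990 mouse and with only the 4 libraries compared in the fit (adjusted p = 0.15, 0.11 and 0.3).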

How the data were processed

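Quadriceps femoris muscle of 24 mice was profiled by strand-specific paired-end sequencing of polyadenylated RNA. The authors deposited raw counts per gene, 1 column per mouse, without normalization. The submitters' processing notes name Bowtie and mm9, while the counting program, its annotation and its use of strand are not given in the sources used here. Genes are listed by NCBI gene number, of which 18594 of 18669 matched a symbol and 18275 an mm9 position, and 2855 had 0 counts in all libraries. The 2 mice of a group varied by more than sampling noise in all 12 groups (chi-square per degree of freedom 19.42 to 110.2). This spread was unequal, at 54.31 to 110.2 in the R6/2 groups and 79.13 in Hsf1-/- HSP990 mice. In the remaining groups it was at most 33.7. The fit shares its estimate of the spread across groups, so it can understate the spread in the noisier ones.

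A gene entered the tests when 10 or more libraries held at least 2 counts of it (13754 genes). Counts were scaled by TMM and fitted as 12 groups with edgeR 4.0.16 (limma 3.58.1, R 4.3.3), using its quasi-likelihood tests (12 degrees of freedom for the residual), Benjamini-Hochberg adjustment over all genes tested, a threshold of 0.05 and 95% intervals. The members, the lists and the comparisons were chosen with earlier results of these data known. Responses averaged over genotypes (2 contrasts) were added after the values had been seen. Tests of members were made only in comparisons without wild type HS or control mice (13 planned). Named genes were the members, up to 3 called genes per list and comparison with the largest change, Ddit3, Atf4, Atf3, Cebpe, Cebpz, Hsf1 and Hspa1a, and the 3 genes of highest r with each member. Tgm2, Mt1, Stat3, Tnfrsf1a and others of a called count were named to complete that count. Of the entries of the lists, 4 were not in the table. Alternatives were DESeq2 1.42.0, a replicate block, only the groups compared, filterByExpr, no filter, RLE size factors, scaling by library size only, and each mouse left out. Gene positions came from the GENCODE M1 annotation on mm9, and promoter sequences from RefSeq.

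On simulated counts for R6/2 HSP990 against vehicle mice (13754 genes, 200 changed), 205 genes were called by edgeR, including 196 changed and 9 unchanged ones, with 97 of 100 found at a log2 change of 1.5 and 99 of 100 at 3. The simulation gave a gene the same spread in all groups and left the genes of lowest level unchanged. In the real data the chi-square per degree of freedom was 100.9 in R6/2 HSP990 and 54.31 in R6/2 vehicle mice. It was 24.45 to 33.7 in wild type groups. The simulated rates therefore do not carry over to the real R6/2 comparison.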

Additional observations from a re-analysis of the deposited data

Results flagged for a closer look

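The HSP990 responses of some genes differed between genotypes by edgeR's test of the difference itself (an interaction term, Benjamini-Hochberg adjusted over all genes), and none of the 4 C/EBP members was among them. For Hsf1-/- minus wild type mice the differences in log2 fold change were 5.32 for Trib3 (adjusted p = 0.00011), 4.45 for Slc7a5 (adjusted p = 0.0011), 3.69 for Sesn2 (adjusted p = 5.4e-05) and 2.18 for Mthfd2 (adjusted p = 0.022), and -6.04 for Hspa1a. For R6/2 minus Hsf1-/- mice they were -5.67 for Trib3, -6.29 for Slc7a5, -3.6 for Sesn2, -3.17 for Mthfd2 and -3.45 for Slc7a1 (adjusted p = 0.00011, 5e-05, 0.00011, 0.0013 and 0.0043), and 5.3 for Hspa1a. The call of Mthfd2 for Hsf1-/- minus wild type mice was lost without any 1 of the 4 wild type mice, Hsf1-/- vehicle replicate 1 or Hsf1-/- HSP990 replicate 2 (1.94 to 2.47 over the 8 mice, adjusted p up to 0.15). The other calls held without any 1 of the 8 mice. With only the groups compared in the fit, Mthfd2 for Hsf1-/- minus wild type (adjusted p = 0.052) and Trib3 and Slc7a1 for R6/2 minus Hsf1-/- mice (adjusted p = 0.062 and 0.096) were lost. Trib3 stood at 65.6 and 143 CPM in Hsf1-/- HSP990 mice against 0.937 to 4.47 CPM in the other 22 libraries.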

How the results depend on the processing

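Over the 60 tested results on the 4 members, 403 of 420 values under other settings and 331 of 384 values with 1 mouse left out kept their direction and their side of the threshold. Most of the 60 results were uncalled, so these shares mostly count values that stayed uncalled. With only the groups compared in the fit, all calls of members in planned comparisons were lost. Their calls in the responses averaged over genotypes held there. The fits pool the spread of 24 libraries over groups of 2 mice, and a lone mouse left in a group was assumed to vary like the others.

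DESeq2 moved uncalled values past the threshold: Cebpb after heat in R6/2 (0.76) and Hsf1-/- mice (0.91), Cebpd for heat minus HSP990 in Hsf1-/- mice (3.17), and Cebpg for the HSP990 response of Hsf1-/- minus wild type (1.03), of R6/2 minus Hsf1-/- (-0.98) and for R6/2 against wild type vehicle (-0.46). With only the groups compared in the fit, Cebpb (0.91) and Cebpd (1.43) passed after heat in Hsf1-/- mice. The same setting lost Cebpd (-3.42) after HSP990 in R6/2 mice, Cebpb (1.36) and Cebpd (4.33) for heat minus HSP990 in R6/2 mice, Cebpd (1.82) for R6/2 against wild type vehicle, and Cebpg (1.11) after HSP990 in Hsf1-/- mice. With library size only, Cebpb passed for R6/2 against wild type vehicle (0.96), where Cebpg (0.22), Aars (0.15) and Hsf1 (0.29) changed sign, as did the uncalled values of Cebpa after heat in R6/2 mice (-0.03) and of Cebpg for the HSP990 response of R6/2 minus wild type (-0.047). That scaling moved the median of all genes in R6/2 against wild type vehicle to 0.74.

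Leaving out single mice gave these ranges for results whose call changed. Cebpb spanned 1.12 to 1.65 for heat minus HSP990 in R6/2 mice and 0.72 to 0.98 for the mean heat response. Cebpd spanned -3.81 to -2.86 after HSP990 in R6/2 mice, 1.29 to 2.46 for R6/2 against wild type vehicle and 1.82 to 3.87 for heat minus HSP990 in Hsf1-/- mice, and Cebpg 1.03 to 1.17 after HSP990 in Hsf1-/- mice.

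Uncalled values changed sign with single mice left out. For Cebpa the ranges were -0.25 to 0.06 (mean heat response), -0.19 to 0.42 (heat, R6/2), -0.55 to 0.013 (heat, Hsf1-/-), -0.99 to 1.08 (HSP990, wild type), -0.23 to 0.0057 (HSP990, R6/2), -0.67 to 2.1 (HSP990, Hsf1-/-) and -0.28 to 0.75 (mean HSP990 response). Its differences spanned -0.6 to 2.3 (HSP990 response, Hsf1-/- minus wild type), -1.19 to 0.88 (R6/2 minus wild type), -2.22 to 0.55 (R6/2 minus Hsf1-/-), -0.077 to 0.54 and -2.4 to 0.37 (heat minus HSP990, R6/2 and Hsf1-/-), and -0.44 to 1.32 and -0.085 to 1.74 (R6/2 and Hsf1-/- against wild type vehicle). For Cebpb they were -0.38 to 0.14 (heat response, R6/2 minus Hsf1-/-) and -0.2 to 0.043 (HSP990 response, R6/2 minus wild type). For Cebpd they were -1.07 to 0.41 (heat response, R6/2 minus Hsf1-/-), -0.84 to 1.21 (HSP990 response, Hsf1-/- minus wild type) and -1.3 to 0.74 (Hsf1-/- against wild type vehicle). For Cebpg they were -0.04 to 0.27 (mean heat response), -0.37 to 0.26 (heat, R6/2), -0.025 to 0.2 and -0.031 to 0.3 (HSP990, wild type and R6/2), -0.11 to 0.21 (HSP990 response, R6/2 minus wild type) and -0.51 to 0.12 (heat minus HSP990, R6/2). The causes of these changes were not tested.

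Replicate numbers did not pair the mice: over 66 pairs of groups the correlation of deviations ran from -0.215 to 0.213 (median -0.0191), over 0.1 in 5. With the replicate number as a block no call of a member changed, with Cebpd at -3.43 after HSP990 in R6/2 mice and Cebpg at 1.1 in Hsf1-/- mice. Counts of genes called moved by over 1.5 times: for R6/2 HSP990 mice 197 became 363 with DESeq2 and 8 with only the groups compared, for Hsf1-/- HSP990 mice 30 became 130 and 0, and for wild type HSP990 mice 255 became 525 and 158. For R6/2 HS mice 6 became 122 with DESeq2, 10 with only the groups compared, 13 with no filter and 3 with library size only. For Hsf1-/- HS mice 1 became 161, 98 and 28 under the first 3 of these, 6 with RLE size factors and 9 with the block. With 1 mouse left out these counts ran from 3 to 500 (R6/2 HS; 500 without HS replicate 2), 0 to 28 (Hsf1-/- HS), 59 to 168 (wild type HSP990), 50 to 228 (R6/2 HSP990) and 11 to 146 (Hsf1-/- HSP990), from 24 to 856 for the mean heat response and from 360 to 684 for the mean HSP990 response.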
